A study of Mus musculus with 8 samples.

Results

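The 10 genes described here encode CC chemokines: Ccl2, Ccl3, Ccl4, Ccl5, Ccl6, Ccl7, Ccl8, Ccl9, Ccl11 and Ccl12. They were taken by symbol from the 55421 Ensembl gene identifiers of each count file, and each symbol matched 1 identifier. The data are RNA-seq counts from the testis of male wild-type (WT) mice, with 8 libraries in 4 groups of 2. LPS+DHEA+Nb mice were injected with lipopolysaccharide (LPS) and, 6 h later, with dehydroepiandrosterone (DHEA) together with Nb23-bi, which the labels name without describing. LPS+DHEA mice received LPS and, 6 h later, DHEA alone, LPS mice received LPS alone, and CTRL mice received phosphate-buffered saline. All injections were intraperitoneal single doses. LPS is a bacterial outer membrane component that activates Toll-like receptor 4, and DHEA is a steroid precursor of androgens. The sources used here do not give the strain, the age, the doses or when testes were taken, nor whether each library is a different animal. The SD, SE and p-values below therefore measure the spread between libraries, which may be technical. A later injection is described for the DHEA groups alone, so DHEA and the injection itself cannot be told apart.

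CC chemokines are small secreted proteins, named after a pair of adjacent cysteines, that attract leukocytes through G protein-coupled receptors. In the mouse, Ccl2, Ccl7 and Ccl12 draw monocytes through Ccr2, Ccl8 acts through Ccr8, Ccl11 draws eosinophils through Ccr3, Ccl3, Ccl5, Ccl6 and Ccl9 can act through Ccr1, and Ccl4 attracts T cells and macrophages. Toll-like receptor signalling through NF-kB is a known inducer of several of these genes in macrophages, and the testis interstitium holds resident macrophages beside the Leydig cells.

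Depth was even, at 61.3 to 64.5 M counts per library, and 30142 to 30626 genes had a count. Spermatid transcripts, the mark of testis, were abundant, and Prm2, which encodes a protamine, had 305614 and 308125 counts in LPS+DHEA+Nb, 268578 and 303076 in LPS+DHEA, 282555 and 276627 in LPS, and 306801 and 333553 in CTRL libraries. Among values of 1 to 40 counts, 33.5% were multiples of 4, against 25.0% among values of 1000 to 10000, so a low count may stand for fewer fragments than it shows. A floor of 12 counts per library, which is 3 fragments of 4 counts, was used wherever a group was at 0. In whole testis, fewer cells of a type and less RNA per cell cannot be told apart.

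The 10 genes lie in 2 clusters on chromosome 11 (GRCm38). The first runs from Ccl2 (chr11:82035571-82037453) through Ccl7 (chr11:82045712-82047525), Ccl11 (chr11:82057823-82062955) and Ccl12 (chr11:82101845-82103400) to Ccl8 (chr11:82115185-82116799), all on the plus strand. The second holds Ccl5 (chr11:83525778-83530518), Ccl9 (chr11:83572919-83578636), Ccl6 (chr11:83587882-83593087) and Ccl3 (chr11:83647844-83649355) on the minus strand and Ccl4 (chr11:83662584-83664683) on the plus strand. No exon of these genes overlaps an exon of another annotated gene, although Ccl2 and Ccl6 each overlap a gene on the opposite strand outside exons. Ccl12 and Ccl8 are neighbours with fitted changes of opposite sign in LPS against CTRL, of which that of Ccl8 did not pass the test. RefSeq's promoter table (GRCm38.p6) held 5 of the 10 genes, namely Ccl3, Ccl6, Ccl8, Ccl9 and Ccl12. The 250 bases before the start of this pair are shown 5′ to 3′, at chr11:82101595-82101844 and chr11:82114935-82115184 on the plus strand, with motif matches in capitals, and Ccl9 (chr11:83578637-83578886, minus strand) is shown as the window with the most matches.
Ccl12: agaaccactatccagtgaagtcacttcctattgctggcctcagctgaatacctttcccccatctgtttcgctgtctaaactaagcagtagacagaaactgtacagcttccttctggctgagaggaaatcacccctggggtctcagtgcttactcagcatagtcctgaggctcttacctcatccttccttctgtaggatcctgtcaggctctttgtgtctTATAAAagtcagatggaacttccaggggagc
Ccl8: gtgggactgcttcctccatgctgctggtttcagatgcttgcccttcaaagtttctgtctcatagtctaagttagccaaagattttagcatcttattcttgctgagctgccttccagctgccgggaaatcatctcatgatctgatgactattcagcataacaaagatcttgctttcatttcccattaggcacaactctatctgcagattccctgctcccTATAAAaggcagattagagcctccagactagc
Ccl9: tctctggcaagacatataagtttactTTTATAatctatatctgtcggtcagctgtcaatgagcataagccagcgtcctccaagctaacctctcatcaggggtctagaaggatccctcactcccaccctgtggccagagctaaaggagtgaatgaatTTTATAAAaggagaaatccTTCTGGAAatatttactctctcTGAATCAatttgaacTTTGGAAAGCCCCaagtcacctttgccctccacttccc
In Ccl12 and Ccl8 the capitals mark a TATAAA box, 31 to 26 bases before the start in Ccl12 and 32 to 27 bases before it in Ccl8. Both windows lacked matches to the other letters searched on both strands, which were AP-1 (TGANTCA), C/EBP (TTNNGNAA), GAS (TTCNNNGAA), and the ISRE and NF-kB consensus sequences. Aligned to each other, the Ccl12 and Ccl8 windows were identical at 150 of 270 columns (55.6%), while the other 9 pairs among the 5 windows were identical at 45.3 to 52.2% of columns. In Ccl9 the capitals mark TATAAA at 92 to 87 bases before the start with reverse-strand matches at 94 to 89 and 224 to 219, C/EBP at 75 to 68 and 38 to 31, AP-1 at 53 to 47, and an NF-kB match at 35 to 26 that overlaps the nearer C/EBP match. Ccl3 held a C/EBP match alone and Ccl6 held none of the motifs. Of all 32851 RefSeq windows of this length, 12.4% held TATAAA, 7.25% the NF-kB consensus, 6.75% AP-1, 36.9% C/EBP, 7.02% GAS and 2.98% ISRE. A match is a description of the letters in the window.

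The 10 genes were all low in this tissue, and their mixture differed between groups. Summed over the 10, the libraries held 464 and 264 counts in LPS+DHEA+Nb, 810 and 439 in LPS+DHEA, 746 and 736 in LPS, and 283 and 215 in CTRL. As counts per M library counts (CPM, TMM-scaled), the sum was 5.73 ± 2.22 in LPS+DHEA+Nb, 9.93 ± 3.89 in LPS+DHEA, 11.8 ± 0.0185 in LPS and 3.94 ± 0.822 in CTRL (mean ± SD, n = 2 each). Ccl8 was the largest single part of the CTRL sum, with 196 of 283 and 78 of 215 counts, whereas Ccl8 gave 4 of 746 and 15 of 736 counts in the LPS libraries. In LPS libraries the largest parts were Ccl5 (184 and 256 counts), Ccl12 (184 and 110) and Ccl7 (130 and 105).

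**Figure D1:**
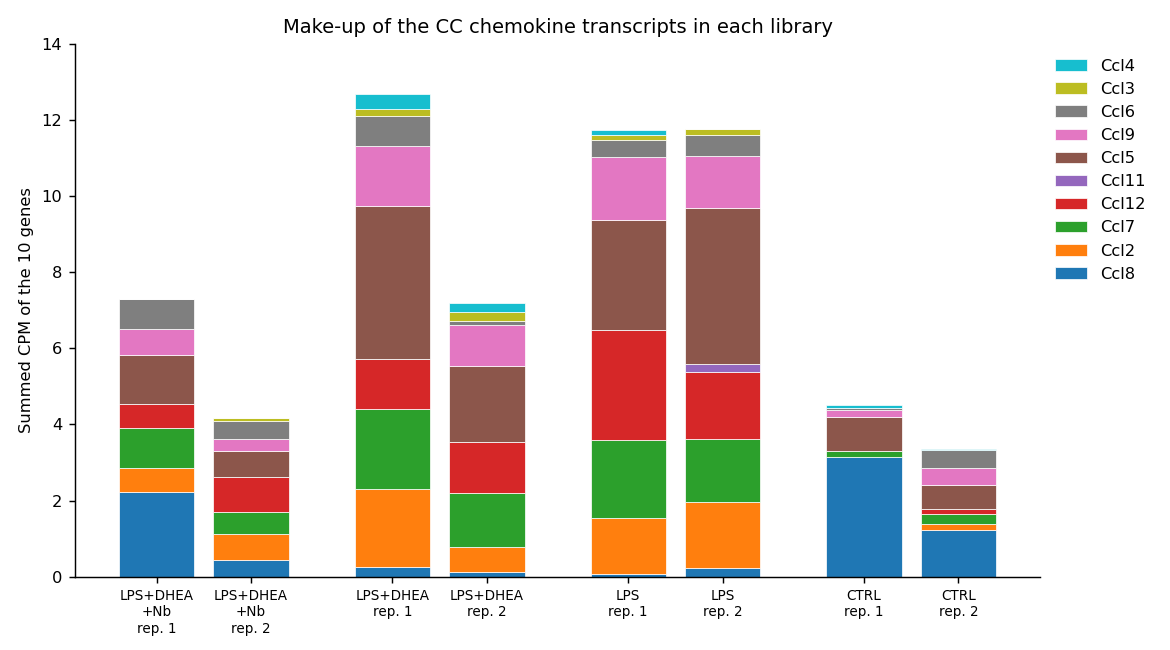
Stacked bars give the CPM of each of the 10 CC chemokine genes in each of the 8 libraries, with the groups from left to right LPS+DHEA+Nb, LPS+DHEA, LPS and CTRL (rep., replicate). The Ccl8 segment is the largest in both CTRL libraries, and the summed height of both LPS libraries is 11.7 to 11.8 CPM, above the 3.36 to 4.52 CPM of the CTRL libraries.

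Per kilobase of exon, which allows levels to be compared between genes, the order in LPS libraries was Ccl12 (4.34 ± 1.5 CPM per kb), Ccl5 (3.64 ± 0.882), Ccl7 (2.33 ± 0.324), Ccl2 (1.40 ± 0.144) and Ccl9 (0.495 ± 0.0608), then Ccl8 (0.296 ± 0.245), Ccl6 (0.283 ± 0.0407), Ccl3 (0.197 ± 0.0168), Ccl4 (0.0954 ± 0.135) and Ccl11 (0.0887 ± 0.125). Ccl12 and Ccl5 did not differ beyond their spread there, and neither did Ccl9 and Ccl8, Ccl8 and Ccl6, Ccl3 and Ccl4, or Ccl4 and Ccl11. In CTRL libraries the order was Ccl8 (4.26 ± 2.65 CPM per kb), Ccl5 (0.80 ± 0.187) and Ccl7 (0.256 ± 0.0797), followed by Ccl6, Ccl12, Ccl9, Ccl4 and Ccl2 at 0.0755 to 0.148 CPM per kb, and Ccl3 and Ccl11 at 0. From Ccl7 down to Ccl2, neighbours in that order did not differ beyond their spread. In LPS+DHEA libraries Ccl5 (3.13 ± 1.47 CPM per kb), Ccl12 (2.47 ± 0.0352), Ccl7 (2.19 ± 0.609) and Ccl2 (1.20 ± 0.877) led, and in LPS+DHEA+Nb libraries Ccl8 (2.62 ± 2.48), Ccl12 (1.45 ± 0.397), Ccl5 (1.03 ± 0.439) and Ccl7 (1.00 ± 0.416) led. The spans of mean ± SD of neighbouring genes among these leaders overlapped in both DHEA groups.

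Setting LPS against CTRL addresses which CC chemokine genes respond to LPS in the testis. Ccl7 and Ccl12, both attractants of monocytes, rose, and Ccl2, Ccl5 and Ccl9 were higher in both LPS libraries than in both CTRL libraries without passing the test. Ccl8 was lower in both LPS libraries, again without passing. The counts were tested with edgeR's quasi-likelihood test, fitted to 26414 genes with Benjamini-Hochberg adjustment, and 9 of the 10 members passed its filter on low counts, Ccl11 being the exception. At an adjusted p under 0.05, 2 of the 9 were called, where 0.295% of all genes tested were. At an unadjusted p under 0.05 there were 7 of the 9, of which 6 were higher and Ccl8 was lower, against 7.11% of all genes. DESeq2 called 6 of the 9 (Ccl2, Ccl5, Ccl7, Ccl9 and Ccl12 higher, Ccl8 lower), against 1.06% of its genes. The 2 groups did not overlap for 7 of the 9, which is read against 37% of all genes tested.

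**Figure D2:**
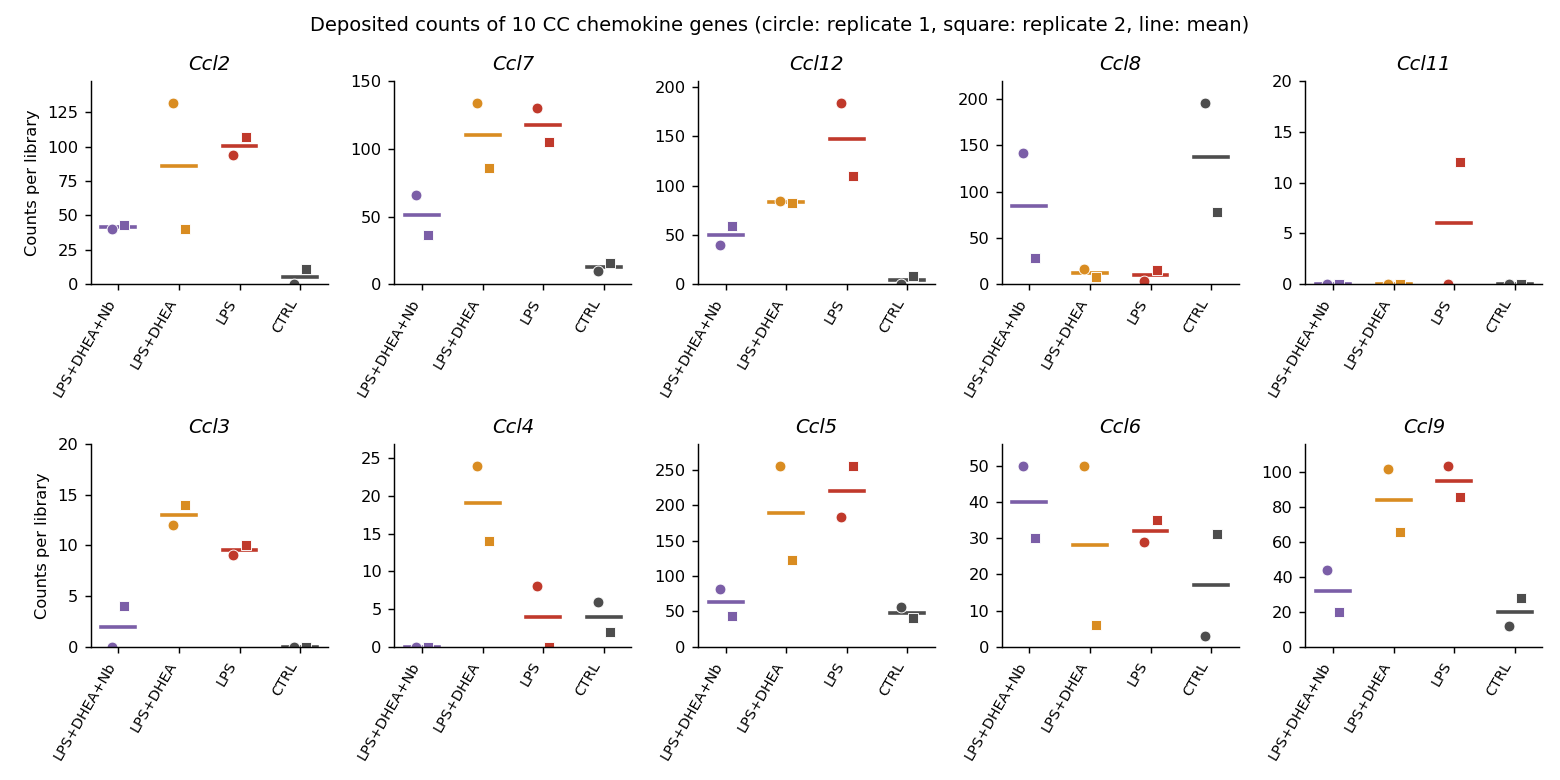
Deposited counts of each of the 10 genes, with 1 panel per gene and its own linear axis from 0, circles for replicate 1, squares for replicate 2 and a line at the group mean. Ccl2, Ccl7, Ccl12, Ccl5 and Ccl9 sit higher in both LPS libraries than in both CTRL libraries, and Ccl8 sits lower.

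Among the monocyte attractants, Ccl12 (MCP-5) had 40 and 59 counts in LPS+DHEA+Nb, 84 and 82 in LPS+DHEA, 184 and 110 in LPS, and 0 and 8 in CTRL libraries. The CTRL libraries were the lowest and the LPS libraries the highest, with no overlap between any of the groups. Ccl12 rose to 2.33 ± 0.804 CPM in LPS, against 0.0625 ± 0.0884 CPM in CTRL (SD, n = 2 each), a log2 fold change of 5.16 (SE 0.79, adjusted p = 0.0349 by edgeR with Benjamini-Hochberg adjustment, 6.575e-09 to 0.1709 over the alternatives). The call was lost without LPS 1 (adjusted p = 0.0948), LPS 2 (0.0616), LPS+DHEA 1 (0.0946) or LPS+DHEA 2 (0.0929), and when the fit held only the LPS and CTRL libraries (0.1709). Without CTRL 1 the log2 fold change was 4.20, while without CTRL 2 the remaining CTRL library was at 0. The replicate block did not keep both the Ccl12 call and that of Ccl7.

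Ccl7 (MCP-3) had 66 and 36 counts in LPS+DHEA+Nb, 134 and 86 in LPS+DHEA, 130 and 105 in LPS, and 10 and 16 in CTRL libraries. Every LPS-injected library was above both CTRL libraries, and the LPS and LPS+DHEA libraries overlapped each other. Ccl7 rose to 1.86 ± 0.260 CPM in LPS, against 0.205 ± 0.0638 CPM in CTRL, a log2 fold change of 3.17 (SE 0.46, adjusted p = 0.0189 by edgeR with Benjamini-Hochberg adjustment, 2.843e-05 to 0.1245 over the alternatives). The call was lost without CTRL 1 (adjusted p = 0.1245) or CTRL 2 (0.0683). In LPS against CTRL the replicate block did not keep the calls of both Ccl7 and Ccl12. Ccl7 was also the member called in LPS+DHEA against CTRL, as given below.

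Ccl2 (MCP-1), the best studied ligand of Ccr2, had 40 and 43 counts in LPS+DHEA+Nb, 132 and 40 in LPS+DHEA, 94 and 107 in LPS, and 0 and 11 in CTRL libraries. The LPS+DHEA libraries lay far apart, the first above both LPS libraries and the second at the level of the LPS+DHEA+Nb libraries. The log2 fold change of Ccl2 in LPS against CTRL was 4.17 (SE 0.99) and did not pass, at an adjusted p = 0.246 by edgeR with Benjamini-Hochberg adjustment (0.000188 to 0.534 over the alternatives). It was called by DESeq2 (adjusted p = 0.000188) and by edgeR without CTRL 2 (adjusted p = 0.0294), where the remaining CTRL library was at 0.

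Ccl8 (MCP-2) had a fitted change of the opposite sign to the other 3 tested genes of its cluster, a difference between genes that was not itself tested. It had 142 and 28 counts in LPS+DHEA+Nb, 16 and 8 in LPS+DHEA, 4 and 15 in LPS, and 196 and 78 in CTRL libraries. The CTRL libraries were the highest, and the LPS+DHEA+Nb libraries were spread so widely that they overlapped CTRL. The log2 fold change in LPS against CTRL was -3.83 (SE 0.97, adjusted p = 0.318 by edgeR with Benjamini-Hochberg adjustment, 0.000889 to 0.805 over the alternatives), and DESeq2 called it (adjusted p = 0.000889). Ccl11 (eotaxin) had 12 counts in LPS 2 and 0 in the other 7 libraries, which is no more than the floor, and it was not tested.

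**Figure D3:**
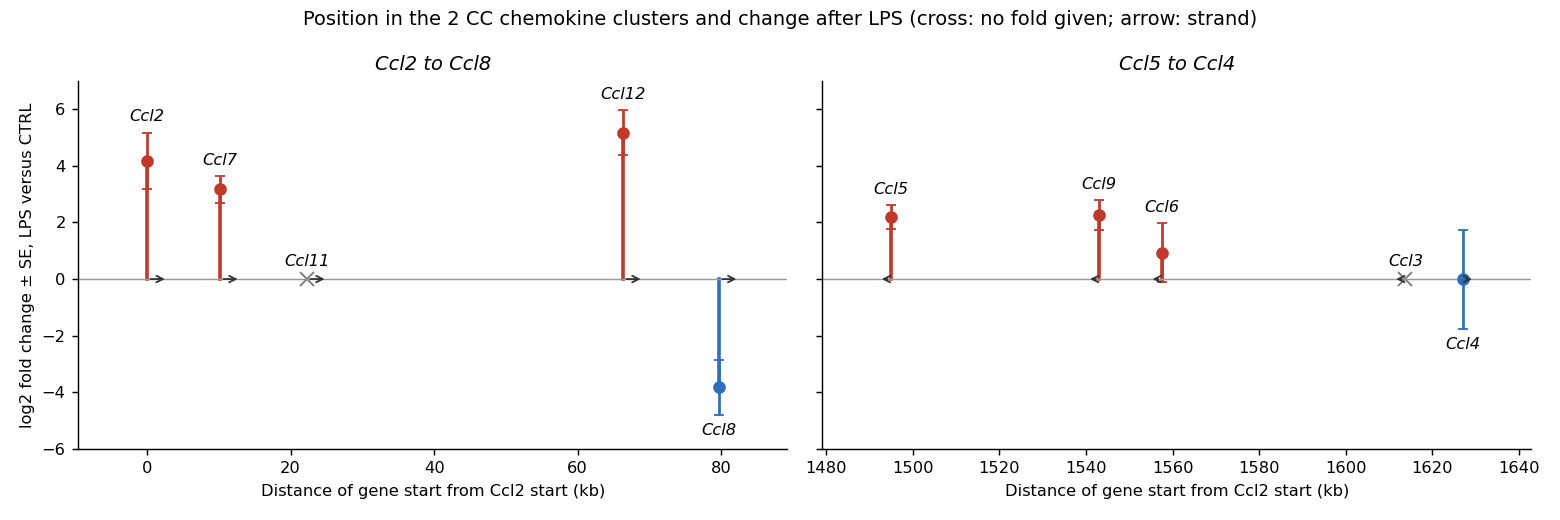
Fitted log2 fold change in LPS against CTRL (± SE) at the distance in kb of each gene's start from that of Ccl2, with arrows for the strand and crosses where no fold is given. The first 3 genes with a fold in the left panel are above 0 and Ccl8, next to Ccl12, is at -3.83, while Ccl5, Ccl9, Ccl6 and Ccl4 in the right panel are at 2.18, 2.25, 0.92 and -0.01.

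Of the other cluster, Ccl5 (RANTES), which attracts T cells and monocytes, was the most abundant by count, with 82 and 44 counts in LPS+DHEA+Nb, 256 and 123 in LPS+DHEA, 184 and 256 in LPS, and 56 and 41 in CTRL libraries. The LPS and LPS+DHEA libraries were all above those of the other groups, and LPS+DHEA+Nb overlapped CTRL. In LPS against CTRL its log2 fold change was 2.18 (SE 0.42, adjusted p = 0.0832 by edgeR with Benjamini-Hochberg adjustment, 0.00086 to 0.335 over the alternatives). Ccl5 was called by edgeR without LPS+DHEA+Nb 1 (adjusted p = 0.0445) or LPS+DHEA+Nb 2 (0.0422), with no filter on low counts (0.0156), and by DESeq2 (0.00086).

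Ccl9 (MIP-1 gamma) had 44 and 20 counts in LPS+DHEA+Nb, 102 and 66 in LPS+DHEA, 104 and 86 in LPS, and 12 and 28 in CTRL libraries. The groups lay as for Ccl5, with LPS and LPS+DHEA high and LPS+DHEA+Nb overlapping CTRL. Its log2 fold change in LPS against CTRL was 2.25 (SE 0.53, adjusted p = 0.184 by edgeR with Benjamini-Hochberg adjustment, 0.044 to 0.661 over the alternatives). Ccl6 (C10), a Ccr1 ligand like Ccl9, had 50 and 30 counts in LPS+DHEA+Nb, 50 and 6 in LPS+DHEA, 29 and 35 in LPS, and 3 and 31 in CTRL libraries. Its CTRL libraries overlapped every other group, and the log2 fold change in LPS against CTRL was 0.92 (SE 1.04, adjusted p = 0.934 by edgeR).

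Ccl3 and Ccl4 (MIP-1 alpha and beta) were near the floor of 12 counts. Ccl3 had 0 and 4 counts in LPS+DHEA+Nb, 12 and 14 in LPS+DHEA, 9 and 10 in LPS, and 0 and 0 in CTRL libraries, and its adjusted p in LPS against CTRL was 0.629 by edgeR. Because CTRL was at 0, no fold is given for LPS, and in LPS+DHEA the gene was at least 1.10-fold higher than in CTRL. Ccl4 had 0 and 0 counts in LPS+DHEA+Nb, 24 and 14 in LPS+DHEA, 8 and 0 in LPS, and 6 and 2 in CTRL libraries. The LPS+DHEA libraries held the highest Ccl4 counts, and the log2 fold change in LPS against CTRL was -0.01 (SE 1.75, adjusted p = 1 by edgeR).

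LPS+DHEA was set against CTRL to see the response under DHEA, with the same CTRL libraries. Ccl7 rose to 1.75 ± 0.488 CPM in LPS+DHEA, against 0.205 ± 0.0638 CPM in CTRL libraries (a log2 fold change of 3.08, SE 0.46, adjusted p = 0.0331 by edgeR with Benjamini-Hochberg adjustment, 8.746e-05 to 0.1678 over the alternatives). It was 1 of 9 members called, where 0.151% of all genes were, and the call was lost without CTRL 1 (adjusted p = 0.1673), CTRL 2 (0.0997), LPS+DHEA 1 (0.1678) or LPS+DHEA 2 (0.0532), with the replicate block (0.0546) and with only the groups compared (0.0563). At an unadjusted p under 0.05 there were 7 members, with Ccl8 as the lower one, against 5.72% of all genes, and DESeq2 called 5 (Ccl2, Ccl5, Ccl7 and Ccl12 higher, Ccl8 lower), against 0.654%. The log2 fold changes of those not called by edgeR were 4.36 (SE 0.79, adjusted p = 0.105) for Ccl12, 3.95 (SE 0.99, adjusted p = 0.416) for Ccl2, 1.97 (SE 0.42, adjusted p = 0.19) for Ccl5, 2.08 (SE 0.53, adjusted p = 0.341) for Ccl9 and -3.49 (SE 0.95, adjusted p = 0.531) for Ccl8. For Ccl4 the value was 2.22 (SE 1.68, adjusted p = 0.964), for Ccl6 it was 0.72 (SE 1.04, adjusted p = 0.988), and Ccl3 had an adjusted p of 0.737 by edgeR. Ccl12 was called in its place without CTRL 2, at an adjusted p = 0.0153, and beside Ccl7 with no filter on low counts (0.0477) or with the counts divided by 4 (0.04997).

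The direct comparison of LPS+DHEA with LPS asks whether DHEA altered the response. None of the 9 members was called, where 0.0189% of all genes were, none had an unadjusted p under 0.05 against 3.51% of all genes, and DESeq2 called none of the 7 members it gave an adjusted p, against 0.148%. The log2 fold changes were -0.81 (SE 0.60) for Ccl12, -0.23 (SE 0.79) for Ccl2, -0.09 (SE 0.40) for Ccl7, -0.22 (SE 0.40) for Ccl5, -0.17 (SE 0.49) for Ccl9, -0.20 (SE 1.02) for Ccl6 and 0.33 (SE 1.03) for Ccl8, all at an adjusted p = 1 by edgeR. The low genes Ccl3 and Ccl4 were at 0.46 (SE 1.52) and 2.22 (SE 1.68), also at an adjusted p = 1. A p that misses the threshold does not show equal levels, and the SE of up to 1.68 leaves these differences loosely measured. The 2 groups did not overlap for 3 of the 9, with Ccl12 lower and Ccl3 and Ccl4 higher in LPS+DHEA, which is read against 31.8% of all genes tested.

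In LPS+DHEA+Nb against LPS, the comparison asks for the effect of DHEA and Nb23-bi together after LPS. The members high after LPS had lower values in LPS+DHEA+Nb and Ccl8 a higher one, but none of the 9 was called by edgeR, where 0.17% of all genes were. At an unadjusted p under 0.05 there were 5 of the 9 (Ccl8 higher, Ccl5, Ccl7, Ccl9 and Ccl12 lower), against 6.56% of all genes. DESeq2 called 2 of the 7 members it gave an adjusted p, against 0.817%, with Ccl5 lower (adjusted p = 0.0163) and Ccl8 higher (adjusted p = 0.0252). The 2 groups did not overlap for 7 of the 9, Ccl8 being higher and Ccl2, Ccl3, Ccl5, Ccl7, Ccl9 and Ccl12 lower, which is read against 36.8% of all genes. The log2 fold change of Ccl5 was -1.81 (SE 0.42, adjusted p = 0.215 by edgeR), to 0.992 ± 0.422 CPM in LPS+DHEA+Nb, against 3.50 ± 0.847 CPM in LPS. That of Ccl8 was 3.13 (SE 0.96, adjusted p = 0.548), to 1.34 ± 1.27 CPM in LPS+DHEA+Nb, against 0.151 ± 0.125 CPM in LPS. Leaving out a library moved it between 1.54, without LPS+DHEA+Nb 1, and 4.37, without LPS 2. The others were -1.58 (SE 0.62, adjusted p = 0.699) for Ccl12, -1.58 (SE 0.51, adjusted p = 0.524) for Ccl9, -1.28 (SE 0.82, adjusted p = 0.875) for Ccl2, -1.21 (SE 0.41, adjusted p = 0.589) for Ccl7 and 0.31 (SE 1.01, adjusted p = 0.997) for Ccl6. For Ccl3 it was -2.19 (SE 1.70, adjusted p = 0.907 by edgeR), and Ccl4 had an adjusted p of 0.818 without a fold.

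**Figure D4:**
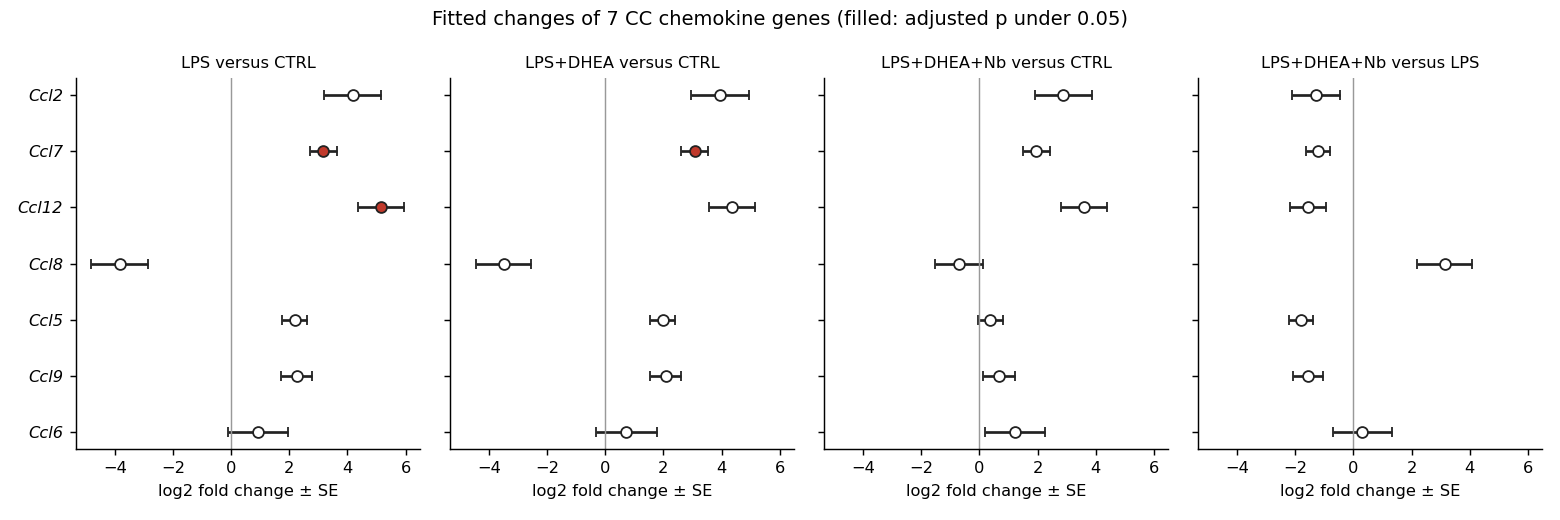
Fitted log2 fold changes (points) with their SE (bars) for the 7 genes with counts in every group, in 4 of the 6 comparisons, where filled points have an adjusted p under 0.05 by edgeR. Ccl7 and Ccl12 are filled in LPS against CTRL and Ccl7 in LPS+DHEA against CTRL, and Ccl8 lies on the other side of 0 from Ccl2, Ccl7, Ccl12, Ccl5 and Ccl9 in every panel.

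LPS+DHEA+Nb was set against LPS+DHEA, the comparison in which Nb23-bi is the added agent, and no member was called by edgeR, where 0.0871% of all genes were, nor by DESeq2, against 0.393%. At an unadjusted p under 0.05 there were 5 of the 9 (Ccl8 higher, Ccl4, Ccl5, Ccl7 and Ccl9 lower), against 4.4% of all genes. The log2 fold change was -1.60 (SE 0.42, adjusted p = 0.549) for Ccl5 and 2.79 (SE 0.94, adjusted p = 1) for Ccl8, which was at 1.21 without LPS+DHEA+Nb 1. Ccl4, at 0 in LPS+DHEA+Nb, was at least 1.60-fold lower than in LPS+DHEA. For Ccl9, Ccl7, Ccl2 and Ccl12 the log2 fold changes were -1.41 (SE 0.51), -1.12 (SE 0.41), -1.06 (SE 0.82) and -0.77 (SE 0.61), each at an adjusted p = 1 by edgeR, as for Ccl6 at 0.51 (SE 1.01) and Ccl3 at -2.65 (SE 1.70).

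Against CTRL, LPS+DHEA+Nb held higher counts of the 3 Ccr2 ligands in both libraries. The log2 fold changes were 3.59 (SE 0.79, adjusted p = 0.45) for Ccl12, 2.89 (SE 0.99, adjusted p = 1) for Ccl2 and 1.96 (SE 0.46, adjusted p = 0.508) for Ccl7 by edgeR, so that none of the 9 members was called, where 0.0303% of all genes were. These 3 were the members with an unadjusted p under 0.05, against 4.28% of all genes, and DESeq2 called Ccl12 alone (adjusted p = 0.00241), against 0.287%. Without CTRL 2, where the remaining CTRL library was at 0, edgeR also called Ccl12 (adjusted p = 0.0346). Ccl5 (0.37, SE 0.43), Ccl9 (0.67, SE 0.54), Ccl6 (1.23, SE 1.04) and Ccl8 (-0.70, SE 0.82) overlapped CTRL. The 6 comparisons share libraries, so their values are set side by side and not as separate evidence.

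Beyond these 10 genes, 12 other CC ligands, 15 receptors and 9 regulators were listed. None of the 8 other ligands, 11 receptors and 9 regulators tested was called by edgeR in any comparison. DESeq2 called Ackr1 in LPS against CTRL (adjusted p = 0.0145) and Ccl28, a mucosal chemokine named here after its values were seen, in LPS+DHEA against CTRL (adjusted p = 0.0268) and in LPS+DHEA+Nb against CTRL (adjusted p = 0.0288). The edgeR log2 fold changes of Ccl28 were 0.96 (SE 0.23, adjusted p = 0.528) in LPS+DHEA+Nb and 0.93 (SE 0.23, adjusted p = 0.328) in LPS+DHEA, both against CTRL. Their median log2 fold changes in LPS against CTRL were -0.24, -0.28 and 0.32, beside -0.002 over all genes, 3.67 over Ccl2, Ccl7, Ccl8 and Ccl12, of which Ccl8 was at -3.83, and 2.18 over Ccl3, Ccl4, Ccl5, Ccl6 and Ccl9. Genes that had a group at 0 were then set to their bound, or to a log2 fold change of 0 where they had none, as for Ccl3. With this, the last median was 0.92 and that of the receptors stayed at -0.28. In LPS against CTRL, the unadjusted p was under 0.05 for 0 of 8 other ligands, 1 of 11 receptors and 3 of 9 regulators. Over all genes tested by edgeR the share was 7.11%. Ccl27a, the most abundant of the other ligands, which attracts T cells to skin, had 4752 and 4399 counts in LPS+DHEA+Nb, 4518 and 4119 in LPS+DHEA, 3643 and 4101 in LPS, and 4058 and 4770 in CTRL libraries.

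Ackr1, a decoy receptor on venular endothelium that binds several of the 10 ligands without signalling, had 5 and 0 counts in LPS+DHEA+Nb, 32 and 12 in LPS+DHEA, 26 and 36 in LPS, and 0 and 0 in CTRL libraries. It was at least 2.60-fold higher in LPS than in CTRL (adjusted p = 0.238 by edgeR, 0.0145 by DESeq2). Cebpb, which encodes a transcription factor of the acute phase response, had a log2 fold change of 1.33 (SE 0.39, adjusted p = 0.367 by edgeR) in LPS against CTRL, and Nfkbia, the NF-kB inhibitor that NF-kB itself induces, one of 0.50 (SE 0.16, adjusted p = 0.42). Ccr1, Ccr2, Ccr3 and Ccr8, named here after their values were seen, were low. Ccr2 had 55 and 44 counts in LPS+DHEA+Nb, 27 and 23 in LPS+DHEA, 24 and 34 in LPS, and 49 and 8 in CTRL libraries. Ccr1 held 0 to 29 counts per library, Ccr3 held 0 to 8, and Ccr8 was at 0 in all 8.

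Markers of the cells that could hold these transcripts moved with some of the groups. Of 15 monocyte and macrophage markers, Marco, a scavenger receptor, rose in LPS and in LPS+DHEA against CTRL (adjusted p = 0.0186 and adjusted p = 0.0289 by edgeR). No other was called there, while Cd163 fell in LPS+DHEA+Nb against LPS (adjusted p = 0.0318 by edgeR). Marco had 165 and 442 counts in LPS+DHEA+Nb, 414 and 299 in LPS+DHEA, 393 and 264 in LPS, and 19 and 14 in CTRL libraries. In LPS+DHEA+Nb against CTRL its log2 fold change was 4.19 (SE 0.53) and did not pass (adjusted p = 0.0816 by edgeR). DESeq2 called Marco there (adjusted p = 1.35e-15). In LPS+DHEA+Nb against LPS its log2 fold change was -0.12 (SE 0.42). The 15 markers went both ways. In LPS against CTRL, 7 of the 15 had an unadjusted p under 0.05 by edgeR, against 7.11% of all genes. Of these, 5 were higher and 2 lower. Named here after their values were seen, Itgam was at a log2 fold change of 3.42 (SE 0.75), Csf1r at -0.90 (SE 0.22) and Cx3cr1 at -1.35 (SE 0.29), each called by DESeq2 (adjusted p = 0.00178, 0.0255 and 0.0356) and not by edgeR. The summed level of the 15 was 117 to 127 CPM in LPS+DHEA+Nb, 115 to 133 in LPS+DHEA, 118 to 119 in LPS and 99.8 to 111 in CTRL libraries, and none of the 15 was at 0 in all libraries. Of 10 neutrophil markers, 7 were tested and S100a8 rose in LPS and LPS+DHEA against CTRL (adjusted p = 0.0237 and adjusted p = 0.0331 by edgeR). S100a8 had 2 and 6 counts in LPS+DHEA+Nb, 107 and 34 in LPS+DHEA, 81 and 49 in LPS, and 0 and 0 in CTRL libraries. The neutrophil sum was 3.93 to 5.52 CPM in LPS+DHEA+Nb, 6.04 to 8.18 in LPS+DHEA, 7.20 to 9.45 in LPS and 3.91 to 4.33 in CTRL libraries, while Ly6g was at 0 in all but LPS+DHEA+Nb 1. Mpo held 200 of 271 and 197 of 250 counts of the CTRL sum, and 6 of the 10 markers were at 0 in both CTRL libraries. In LPS libraries Mpo had 192 and 204 counts, a log2 fold change of 0.002 (SE 0.25) against CTRL. The sum of 5 smooth muscle markers was 103 to 111 CPM in LPS+DHEA+Nb, 157 to 183 in LPS+DHEA, 177 to 182 in LPS and 95.4 to 105 in CTRL libraries, and its Acta2 rose in LPS against CTRL (adjusted p = 0.000737 by edgeR) and fell in LPS+DHEA+Nb against LPS (adjusted p = 0.00443). The sum of 6 Leydig markers was 778 to 904 CPM in LPS+DHEA+Nb, 602 to 614 in LPS+DHEA, 677 to 700 in LPS and 838 to 970 in CTRL libraries. Most of this sum was Insl3, at a mean of 532, 493, 560 and 574 CPM in the same order. In LPS against CTRL the median log2 fold change of the 6 was -1.14. By edgeR none was called, and 4 of the 6 had an unadjusted p under 0.05, against 7.11% of all genes. Star was at 0.11 (SE 0.38). The sum of 8 endothelial markers was 59.6 to 69.5 CPM in LPS and 47.1 to 51.9 in CTRL libraries. It was 53.3 to 55.3 CPM in LPS+DHEA+Nb and 56.2 to 61.3 in LPS+DHEA libraries. By edgeR none of the 8 was called in LPS against CTRL. DESeq2 called Pecam1 and Cdh5 alone, both higher (adjusted p = 0.0441 and 0.0312), named here after their values were seen. The part of these cells in the chemokine values was not tested.

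Genes were also ranked by likeness to the members, over 13961 candidates with a symbol and a mean of at least 1 CPM. Members, pseudogenes and symbols of the Gm number, Rik or clone kind were left out. The candidates most like the mean log2 CPM of the 9 tested members over the 8 libraries were Cybb (r = 0.983) and Rtf1 (0.970). Adad2 (0.968), Erap1 (0.960) and Cfb (0.958) came next. These correlations are descriptions over libraries that share group, depth and tissue make-up. They do not measure the size of a change. Rtf1 moved little, at 3784 to 4306 counts per library, as did Adad2 at 1795 to 2359, and Erap1 held 313 to 486. Cybb, which encodes the catalytic subunit of the phagocyte NADPH oxidase, had 259 and 208 counts in LPS+DHEA+Nb, 503 and 294 in LPS+DHEA, 322 and 387 in LPS, and 126 and 175 in CTRL libraries. Cybb was picked for its likeness to the mean of the members. That both were highest in LPS+DHEA 1 is therefore no separate evidence. Cfb, complement factor B, had 1012 and 558 counts in LPS+DHEA+Nb, 1755 and 1415 in LPS+DHEA, 1679 and 2157 in LPS, and 268 and 403 in CTRL libraries. Within the LPS+DHEA group, 7 members were higher in replicate 1 and 2 in replicate 2, and within LPS+DHEA+Nb 5 were higher in replicate 1 and 3 in replicate 2.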

How the data were processed

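RNA was extracted with TRIzol and libraries were made with a KAPA stranded kit, per the labels' protocols, which speak of islets where the labels give testis. The submitters' processing notes list featureCounts 1.5.0-p3, HISAT without a version, and the build GRCm38, with neither role nor order. Going by their range, the values the authors deposited are whole estimated counts (expected counts) for each Ensembl gene with no scaling. Neither the strand setting nor the treatment of multiply matching reads is given in the sources used here. Of 55421 identifiers, 55154 had a symbol and 55240 a GENCODE M21 position.

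In R 4.3.3, edgeR 4.0.16 kept 26414 genes by filterByExpr (minimum count 10, total 15) and scaled the libraries by TMM (factors 0.985 to 1.015). A quasi-likelihood model (robust) with 4 group means was fitted to all 8 libraries, leaving 4 residual degrees of freedom, and the common biological coefficient of variation was 0.231. In each of 6 comparisons, Benjamini-Hochberg adjustment ran over all genes tested, and an adjusted p under 0.05 was a call. The SE is the log2 fold change divided by the square root of F. No fold is given against a group at 0. The alternatives were DESeq2 1.42.0, its size factors in edgeR, no filter, a replicate block, only the groups compared, counts divided by 4, and each library left out. Libraries of a group differed beyond sampling noise (chi-square over its degrees of freedom 25 to 28.4). Same-numbered libraries did not deviate together (correlations -0.0326 to 0.0312), so the numbers were not taken as pairs.

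The text names all 10 members and up to 4 genes per pathway list by smallest p in LPS against CTRL where none was called. It also names the 5 genes most like the members, among the candidates above with at least 1 CPM (log2 CPM with a prior count of 2). The members, lists and rules were chosen with earlier results of these data known. Motifs were searched by exact letters. The steps were tested on simulated data. Most other genes of the lists are not reported singly here.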

Additional observations from a re-analysis of the deposited data

How the results depend on the processing

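In LPS against CTRL, where 2 members were called, DESeq2 called 6, the replicate block 1 and only the groups compared 1, and leaving out each library in turn gave 1 to 3. In LPS+DHEA against CTRL, where 1 was called, DESeq2 called 5, no filter on low counts 2, counts divided by 4 gave 2, the replicate block 0, only the groups compared 0, and leaving out a library 0 to 1. In LPS+DHEA+Nb against CTRL, where 0 were called, DESeq2 called 1 and leaving out a library gave 0 to 1, and in LPS+DHEA+Nb against LPS, where 0 were called, DESeq2 called 2. The block used the shared replicate numbers, which do not pair the libraries. The cause of these moves was not tested. Changes were counted over the members in all 6 comparisons and up to 4 genes per pathway list in LPS against CTRL. Comparisons with a group at 0 were left out. Of these 815 values under an alternative, 762 kept their direction and their side of the threshold, 14 lost the call, 19 gained it and 20 turned sign. Each of the 20 turned when a library was left out. The cell type markers, Ackr1 and Ccl28 were not in this count. Log2 fold changes that turned sign ranged in LPS+DHEA against LPS from -1.29 to 0.37 for Ccl2, -0.80 to 0.20 for Ccl5, -2.35 to 0.62 for Ccl6, -0.41 to 0.17 for Ccl7, -0.33 to 1.56 for Ccl8 and -0.49 to 0.083 for Ccl9. They ranged from -1.43 to 3.15 for Ccl6 in LPS+DHEA against CTRL. In LPS+DHEA+Nb they ranged from -0.14 to 0.75 for Ccl5 and -2.29 to 0.13 for Ccl8 against CTRL, -0.10 to 0.63 for Ccl6 against LPS, and -1.66 to 0.0027 for Ccl2 and -0.31 to 2.66 for Ccl6 against LPS+DHEA. In LPS against CTRL they ranged from -0.093 to 2.20 for Ccl19 and from -5.05 to 0.97 for Ccl4, whose lower end sets a lone LPS library at 0 and is no bound. A left-out library leaves a group with 1, which is assumed to vary like the others. Counts near the floor of 12 limit Ccl3, Ccl4 and Ccl11.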
